A study of Mus musculus with 6 samples.

Results

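RNA of 52 cell-cycle and DNA replication genes was followed in mouse embryonic fibroblasts (MEFs) before and after treatment with TNFα. The genes were taken by symbol from the deposited table of RefSeq transcripts, in which 20275 coding symbols are listed, and all 52 were found. They fall into 26 genes of S phase and its entry, 25 genes of G2 and mitosis, and the G1 cyclin gene Ccnd1. For a symbol with several coding transcripts, the one with the highest mean over all columns was used. The cells were primary wildtype MEFs of the strain C57BL/6x 129 from littermate embryos of day 13.5, passaged 4 times. The groups were untreated cells and cells given 20 ng/ml of TNFα for 1.5, 6 or 24 hr, with 1 RNA library each. H3K4me3, a histone mark found at the promoters of active genes, was profiled in untreated cells with 1 ChIP library and 1 input library. How many embryos were pooled is not given in the sources used here, and for the sample of 24 hr the extraction field describes chromatin, whereas its molecule is given as total RNA and its library as transcriptomic.

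Cells copy their DNA in S phase and divide it in mitosis. Before S phase, licensing factors load the MCM helicase onto origins, and E2F transcription factors switch on genes for the helicase, the polymerases and the supply of nucleotides. Later, Foxm1 and Mybl2 act with other factors on genes for cyclins, mitotic kinases, kinesins and centromere proteins, so the RNA of these genes is widely used as a measure of proliferation. Primary fibroblasts in culture divide without being synchronised, so a bulk level averages cells of every phase. A smaller fraction of cells in a phase and less RNA per cell cannot be told apart in such samples.

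Levels are given in the deposited units, which are RPKM (reads divided by transcript length and library size) multiplied by a constant, so they are per length and can be compared between genes. The level of a library is the mean of its 2 deposited columns, R1 and R2. These columns share fragments and are no replicates, so there is no estimate of biological error and no test, and the untreated library is the reference of all 3 times. The R1 and R2 ratios are given as the technical spread. Over the 52 genes the log2 ratios from R1 and R2 had median differences of 0.07, 0.12 and 0.08 at the 3 times, and the highest was 0.94, for Chek1 at 24 hr. The median counting error was larger, with 95% half-widths of 0.25, 0.32 and 0.25, although single genes such as Ccna2 at 1.5 hr and Chek1 at 24 hr differed between R1 and R2 by more than theirs. Reads were estimated from the step that 1 read makes in the values and the length of the longest GENCODE transcript of each gene. Where the RefSeq transcript is shorter than that, the reads are overstated and the half-widths too narrow. On this basis the 52 genes had about 25 to 2182 untreated reads in R1. This gives a 95% half-width of the log2 ratio between 0.07 and 0.69 at 1.5 hr and of up to 0.95 at 6 hr.

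The libraries differed as a whole. All deposited values together came to 1.19, 0.563 and 0.964 times the untreated sum at 1.5, 6 and 24 hr. The median log2 ratio of the 12576 coding genes with a mean level above 5 was 0.49, −0.74 and 0.13 at 1.5, 6 and 24 hr, and each value below is to be read against these shifts. All 10 fibroblast markers were detected in every library. Of the 4 epithelial markers, Epcam was listed at 0 in all 4 libraries. Krt18 had 41.1, 45.8, 19.6 and 22.0 units at 0, 1.5, 6 and 24 hr, and Krt8 and Cdh1 had at most 2.99 units. The leukocyte list of 5 genes summed to 980, 1279, 335 and 532 units in the order of the times, with 605, 823, 202 and 312 for the macrophage marker Cd68, and the part of such cells in the results was not tested. As a check of the treatment, Nfkbia, an NF-κB target, had 319 units before treatment and 7211, 2655 and 5772 units after it. Cxcl10 and Saa3 had 7.64 and 3.52 units before treatment and 126 and 774 units at 24 hr.

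At 1.5 hr most of the cell-cycle genes were above their untreated level. Of the 52 genes, 35 were at least 2-fold higher and 0 were at least 2-fold lower. Among all coding genes with a mean level above 5, 30.9% were at least 2-fold higher and 10.1% were at least 2-fold lower. The median log2 ratio of the 52 genes was 1.19, which is 0.71 above that of all coding genes, and 42 of 52 genes were above the latter. As deposited, the mitotic genes led, with 21 of 25 at least 2-fold higher and a median log2 ratio of 1.31. Of the S-phase genes 14 of 26 were at least 2-fold higher and the median was 1.05. With the stricter limit of a mean level above 100, which 26 of the 52 genes passed, 16 were at least 2-fold higher against 29.8% of all coding genes and 0 lower against 7.97%, and the medians of the 14 mitotic and 11 S-phase genes were 1.32 and 0.65.

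At 6 hr 50 of the 52 genes (96.2%) were at their lowest, against 72.1% of all coding genes with a mean level above 5. The exceptions were Gmnn and Anln, which were lowest in the untreated library. All 52 had a lower level at 6 hr than at both 1.5 and 24 hr, as did 83.1% of all coding genes. Against the untreated library 0 of 52 were at least 2-fold higher, with 2.22% of all coding genes, and 11 were at least 2-fold lower, with 33.6% of all coding genes. The median log2 ratio was −0.67, close to the −0.74 of all coding genes. As deposited, the S-phase genes were lower than the mitotic genes, with medians of −0.87 and −0.38. With a mean level above 100, 0 of 26 genes were at least 2-fold higher against 1.83% of all coding genes and 8 were at least 2-fold lower against 31.5%. For the 14 mitotic genes above this limit the sign at 6 hr depended on the scaling, since a median of −0.50 as deposited became 0.23 to 0.33 under 4 scalings that set the libraries to a common level, and 0.02 after centring on genes of like GC content.

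At 24 hr the genes were higher again, though less than at 1.5 hr. Of 52 genes, 15 were at least 2-fold higher against 17.1% of all coding genes, and 0 were at least 2-fold lower against 14.8%. The median log2 ratio was 0.76, compared with 0.13 for all coding genes. The S-phase and mitotic medians were 0.73 and 0.88, and 7 of 26 and 8 of 25 genes passed 2-fold. In the 26 genes with a mean level above 100, 8 were at least 2-fold higher against 16.8% of all coding genes and 0 lower against 12.8%. The profile of 1.5 hr highest, then 24 hr, untreated and 6 hr was shown by 37 genes (71.2%), 22 mitotic and 15 S-phase, and by 36.9% of all coding genes.

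**Figure D1:**
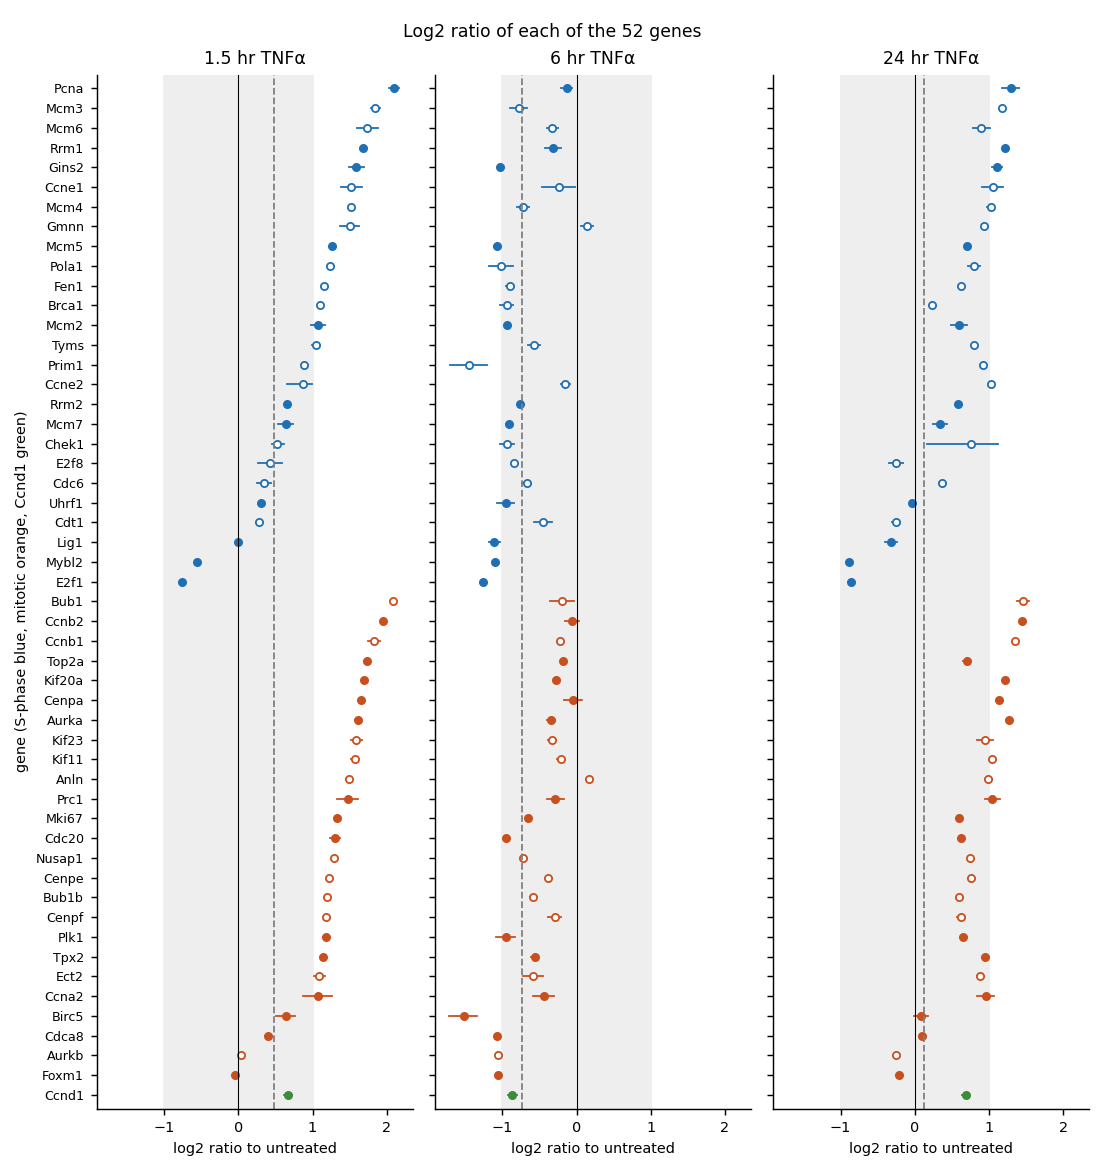
Log2 ratio to the untreated library (x axis) of each of the 52 genes (y axis) at 1.5, 6 and 24 hr. Points are the mean of R1 and R2, bars join the R1 and R2 ratios, open points are genes with a mean level of at most 100, the dashed line is the median of all coding genes with a mean above 5 and the grey band spans ratios below 2-fold. At 1.5 hr 35 points lie to the right of the band, at 6 hr 11 lie to its left and at 24 hr 15 lie to its right.

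Library medians and base composition moved with this profile. With each ratio taken relative to the median of all coding genes, 18 of 52 genes were at least 2-fold higher at 1.5 hr against 15.2%, 0 at 6 hr against 8.4% and 9 at 24 hr against 13.7%. Of these 52 genes, 2, 0 and 1 were at least 2-fold lower on this scale at 1.5, 6 and 24 hr, beside 19.3%, 7.03% and 17.5% of all coding genes. Transcripts with a low GC content had higher ratios in these data. Across the 12315 coding genes with a mean above 5 and a known GC content, Pearson's r of GC content and log2 ratio was −0.53, −0.32 and −0.50 at the 3 times. Over the 52 genes it was −0.45, −0.43 and −0.56. Genes are no independent replicates, and these correlations share the same libraries. The 52 transcripts had a median GC content of 47.6%, below the 50.7% of all coding genes.

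In the 26 genes with a mean level above 100, 9, 0 and 7 were at least 2-fold higher relative to the library median at the 3 times, against 15.8%, 7.21% and 14.4%, and 2, 0 and 0 were at least 2-fold lower, against 17.4%, 3.26% and 15.2%.

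Centring each ratio on the median of its GC bin gave smaller values. At 1.5 hr the median of the 52 genes was then 0.39, with 39 genes above 0 and 10 at least 2-fold higher against 11.3% of all coding genes. At 24 hr it was 0.40, with 42 genes above 0 and 6 at least 2-fold higher, again against 11.3%. At 6 hr it was 0.01, with 0 genes at least 2-fold higher against 6.31% and 0 lower against 6.16%. At 1.5 and 24 hr 0 genes were at least 2-fold lower, against 12.6% and 11.4%. In the 26 genes with a mean level above 100, 5, 0 and 2 were then at least 2-fold higher, against 10.8%, 4.94% and 10.5%, and 0 were lower at each time, against 10.5%, 2.68% and 8.97%. Centring brought both lists together as well, with medians of 0.29 for S-phase and 0.42 for mitotic genes at 1.5 hr and of 0.36 and 0.43 at 24 hr. The order of the counts turned at 1.5 hr, with 6 of 26 S-phase genes (23.1%) and 4 of 25 mitotic genes (16%) at least 2-fold higher, against 11.3%. Coding genes with a mean above 100 were also divided into 4 equal classes of GC content. The 52 genes were placed in these classes whatever their level. In the lowest class, which holds 27 of the 52 genes, the median log2 ratio at 1.5 hr was 1.28 for these genes and 1.18 for the coding genes with a mean above 100. In the second class, with 13 genes, it was 1.27 against 0.68, and in the third, with 10 genes, 0.85 against 0.17. In the highest class, with 2 genes, it was −0.24 against −0.37. The part of base composition and of library scaling in the ratios was not tested.

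**Figure D2:**
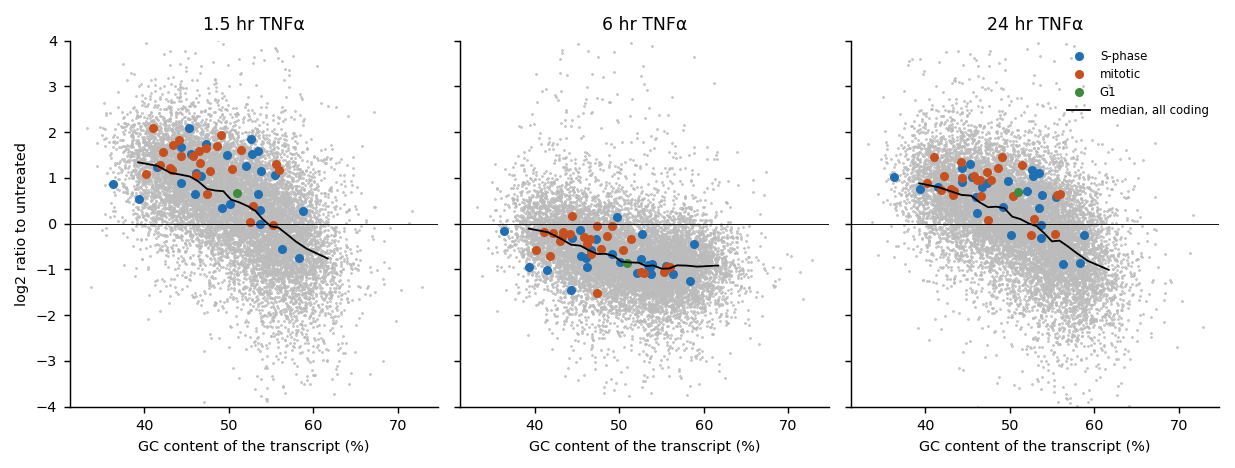
GC content of the transcript (x axis, %) against the log2 ratio to the untreated library (y axis) at 1.5, 6 and 24 hr. Grey points are coding genes with a mean level above 5, the black line is their median in bins of GC content, and blue, orange and green points are the S-phase genes, the mitotic genes and Ccnd1. The line is higher at low than at high GC content at each time and levels off at high GC content at 6 hr, and at 1.5 and 24 hr 39 and 42 of the 52 coloured points lie above the median of their bin.

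**Figure D3:**
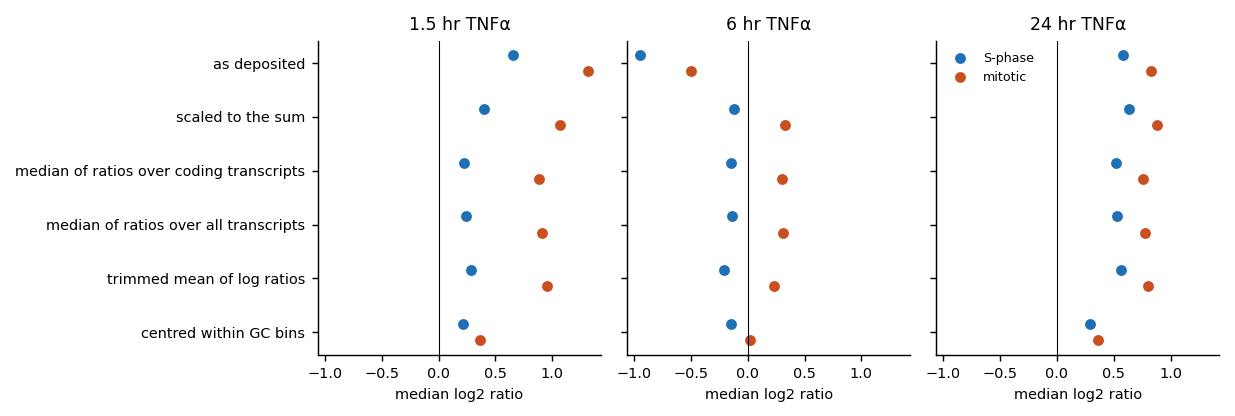
Median log2 ratio (x axis) of the S-phase genes (blue) and the mitotic genes (orange) with a mean level above 100, as deposited and under each scaling (y axis), at 1.5, 6 and 24 hr. The mitotic median lies to the right of the S-phase median in each case, and the 2 medians are closest after centring within GC bins.

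The replicative helicase, the ring of Mcm2 to Mcm7 that unwinds DNA at the fork, was higher at 1.5 and 24 hr in all 6 subunits. Mcm2 (minichromosome maintenance 2) had 129, 270, 67.3 and 194 units at 0, 1.5, 6 and 24 hr. Mcm3 had 52.6, 189, 30.7 and 119 units. Mcm4 had 38.8, 111, 23.6 and 78.6 units. In all 6 subunits the order of the libraries was the same, with 1.5 hr highest, then 24 hr, untreated and 6 hr. This order was shown by 36.9% of all coding genes with a mean level above 5. Mcm5 had 90.8, 219, 43.2 and 148 units. Mcm6 had 56.0, 186, 44.5 and 104 units. Mcm7, the most abundant subunit, had 232, 362, 123 and 294 units. The log2 ratios of the 6 subunits ran from 0.64 for Mcm7 to 1.85 for Mcm3 at 1.5 hr and from 0.34 to 1.18, for the same genes, at 24 hr. All 6 stayed above 0 at both times under every scaling and after GC centring, where they ran from 0.37 to 1.47 and from 0.40 to 1.18. At 6 hr the ratios were −1.07 to −0.33 as deposited and −0.23 to 0.33 after GC centring, and Mcm5 alone was below 0 under every scaling and after GC centring.

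**Figure D4:**
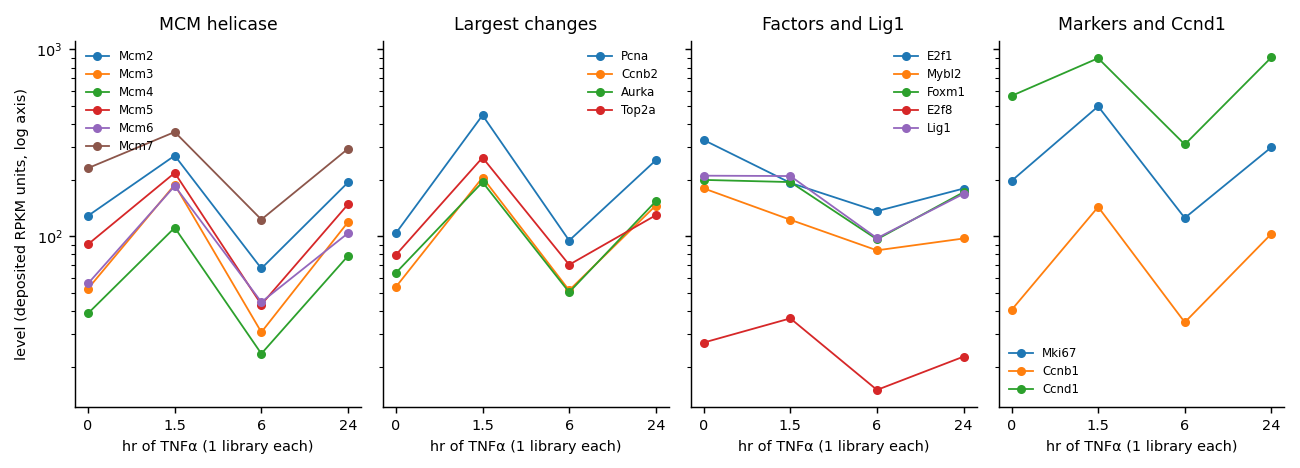
Level (y axis, deposited RPKM units, log scale) in the untreated library and at 1.5, 6 and 24 hr of TNFα (x axis, 1 library each) for the MCM subunits, the genes with the largest changes, the transcription factors with Lig1, and the usual proliferation markers with Ccnd1. Each of these genes is lower at 6 hr than at 1.5 and 24 hr, and E2f1 and Mybl2 are highest in the untreated library.

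Among the proteins of the fork, Pcna stood out. Pcna, the sliding clamp of the DNA polymerases, had 104, 444, 95.0 and 255 units, and its ratio at 1.5 hr was 4.27-fold, next to 4.26-fold for Bub1. The R1 and R2 log2 ratios were 2.16 and 2.03 at 1.5 hr and 1.41 and 1.18 at 24 hr. Gins2, a subunit of the complex that activates the helicase, had log2 ratios of 1.59, −1.03 and 1.11 at 1.5, 6 and 24 hr. Lig1, the ligase that joins Okazaki fragments, had 211 and 210 units at 0 and 1.5 hr and 97.8 and 169 units at 6 and 24 hr. Its ratio was below 0 at each time, under every scaling and after GC centring. At 1.5 hr as deposited it was only −0.007, with 0.01 from R1 and −0.03 from R2. Fen1, which trims the fragments, had ratios of 1.15, −0.89 and 0.62. Pola1, the catalytic subunit of polymerase alpha, and Prim1, the primase that acts with it, were low, between 4.30 and 55.3 units. At 6 hr 4 of 6 fork genes were at least 2-fold lower as deposited, against 33.6% of all coding genes. Relative to the library median it was 0 of 6, and 0 of all 52 genes, against 7.03%. The genes lower as deposited were Gins2, Lig1, Pola1 and Prim1, the last pair with log2 ratios of −1.01 and −1.45. All 4 were below 0 under every scaling and after GC centring.

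Genes of nucleotide supply and origin licensing were less even. Rrm1, the large subunit of ribonucleotide reductase, had 63.2, 202, 50.7 and 146 units, with log2 ratios of 1.68, −0.32 and 1.21. Its partner Rrm2, whose RNA is made mostly in S phase, had smaller ratios of 0.65, −0.76 and 0.58, the first of which was −0.27 after GC centring. Tyms, the thymidylate synthase, lay between them with 1.04, −0.57 and 0.80. Among licensing genes Gmnn (geminin), the inhibitor of Cdt1, had ratios of 1.50, 0.15 and 0.93, whereas its target Cdt1 had 0.27, −0.45 and −0.26, which GC centring turned to 0.82, 0.49 and 0.56. Cdc6, which loads the helicase with Cdt1, had between 7.34 and 15.1 units and ratios of 0.34, −0.67 and 0.37.

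Of the remaining S-phase genes, the E cyclins, which drive entry into S phase, were higher at 1.5 and 24 hr. Ccne1 had log2 ratios of 1.52 and 1.05 at these times. Ccne2, with 9.33 units before treatment, had 0.87 and 1.02. After GC centring the sign of Ccne2 at 1.5 hr changed, to −0.47. The checkpoint kinase gene Chek1 and the repair gene Brca1 had under 18 units in every library. Uhrf1, which guides DNA methylation after replication, had 181, 224, 93.7 and 177 units.

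Of the 4 transcription factors, none was at least 2-fold higher at any time. The shares of all coding genes with a mean above 5 were 30.9%, 2.22% and 17.1% at 1.5, 6 and 24 hr. At 6 hr 0 of all 52 genes were at least 2-fold higher. E2f1, Mybl2 and Foxm1 were at least 2-fold lower at 6 hr as deposited, as were 33.6% of all coding genes. E2f1, an activator of S-phase genes, had 328 units before treatment, the highest of the S-phase genes, and 193, 136 and 180 units at 1.5, 6 and 24 hr. Its log2 ratios of −0.76, −1.26 and −0.86 stayed below 0 under every scaling and after GC centring, where they were −0.37, −0.35 and −0.22. Mybl2 had 181, 123, 84.2 and 97.4 units and ratios of −0.56, −1.10 and −0.89, also below 0 in each case. Their R1 and R2 ratios differed by less than 0.1 at all 3 times. Foxm1, the activator of mitotic genes, had 200, 195, 96.4 and 172 units, and its ratios of −0.04 and −0.22 at 1.5 and 24 hr became 0.02 and 0.17 after GC centring. E2f8, a repressor among the E2F factors, had 27.0, 36.4, 15.1 and 22.7 units, and its ratio of 0.43 at 1.5 hr was −0.10 after GC centring. Only 4 of the 52 genes were highest in the untreated library, namely E2f1, Mybl2, Foxm1 and Lig1, which is 7.69% of them compared with 30.3% of all coding genes with a mean above 5. E2f1 and Mybl2 are also GC-rich, with 58.3% and 56.3%.

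The A and B cyclins, which activate Cdk1 for mitosis, were at least 2-fold higher at 1.5 hr in all 3 genes. The share of all coding genes with a mean level above 5 was 30.9%. After GC centring only Ccnb2 reached 2-fold, against 11.3% of all coding genes. Ccnb2 had 53.7, 206, 51.5 and 146 units, with log2 ratios of 1.94, −0.06 and 1.45. Ccnb1 had 40.4, 144, 34.7 and 103 units and ratios of 1.83, −0.22 and 1.35. Ccna2, which acts from S phase on, had 80.4, 169, 59.3 and 156 units, and its R1 and R2 ratios at 1.5 hr were 0.88 and 1.26. All 3 cyclins were above 0 at 1.5 and 24 hr under each scaling and after GC centring.

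The mitotic kinases split. Aurka, a kinase of the spindle poles, had 63.8, 195, 50.2 and 154 units, with log2 ratios of 1.61, −0.34 and 1.27. Plk1, which acts at several steps of mitosis, had 110, 249, 56.8 and 173 units and ratios of 1.18, −0.95 and 0.65. The spindle checkpoint genes Bub1 and Bub1b had ratios of 2.09 and 1.20 at 1.5 hr, although Bub1 had only 7.18 units and about 25 reads before treatment. Aurkb, the kinase of the chromosomal passenger complex, differed from them with 61.8, 63.5, 29.7 and 51.8 units. Its partners in that complex, Birc5 (survivin) and Cdca8 (borealin), had ratios of 0.08 and 0.10 at 24 hr, and only Aurkb and Foxm1 were lower among the mitotic genes. Birc5 had the lowest ratio of all 52 genes at 6 hr, −1.51, from 225 to 78.9 units. These passenger genes were set side by side after their values were seen.

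Genes of the spindle, the centromere and chromosome structure were at least 2-fold higher at 1.5 hr throughout, against 30.9% of all coding genes with a mean level above 5. This held for the centromere genes Cenpa, Cenpe and Cenpf, the kinesins Kif11, Kif20a and Kif23, the spindle proteins Tpx2, Nusap1 and Prc1, and the cytokinesis genes Ect2 and Anln. Their log2 ratios ran from 1.09 for Ect2 to 1.70 for Kif20a. After GC centring these ratios ran from −0.25 for Ect2, the only gene below 0, to 0.97 for Kif20a. None then reached 2-fold, against 11.3% of all coding genes, and Nusap1, Cenpf and Cenpe had 0.02, 0.07 and 0.11. Cdc20, which starts anaphase, had 177, 439, 91.5 and 273 units and kept a ratio of 1.39 after GC centring, the highest of the mitotic genes at 1.5 hr. Top2a, the topoisomerase that untangles chromosomes, had 79.6, 264, 70.5 and 130 units. Mki67, the gene of the Ki-67 antigen, had 198, 496, 125 and 300 units. At 24 hr the ratios of Top2a and Mki67 were 0.70 and 0.60 as deposited but 0.00 and 0.13 after GC centring.

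Ccnd1, the cyclin that links growth signals to the G1 kinases, had the highest level of the 52 genes in every library, 564, 897, 310 and 907 units. Its log2 ratios were 0.67, −0.86 and 0.68. They were thus above the median of all coding genes at 1.5 and 24 hr but did not reach 2-fold.

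The 26 genes with a mean level of at most 100 comprised 15 S-phase and 11 mitotic genes. Their mean levels ran from 9.55 for Chek1 to 97.8 for Mcm3.

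Other genes of the same pathways gave a mixed account. Of 40 further replication genes, 10 had a mean level above 100, and at both 1.5 and 24 hr 0 were higher and 1 was lower by 2-fold or more. Of all coding genes above this limit, 29.8% and 16.8% were higher at 1.5 and 24 hr, and 7.97% and 12.8% were lower. The 1 lower gene, a share near these, was Pold1, the catalytic subunit of polymerase delta, with 258, 126, 159 and 113 units. Next lowest at 24 hr was Rnaseh2a, with a log2 ratio of −0.86, and the highest were Tk1 and Pold2, with 0.63 and 0.44. With the lower limit of 5 units all 40 counted and 14 (35%) were at least 2-fold higher at 1.5 hr, near the 30.9% of all coding genes. Relative to the library median it was 8 (20%) against 15.2%, and after GC centring 4 (10%) against 11.3%. Of 47 further mitotic genes, 16 had a mean above 100. Ratios of 2-fold or more were found in 7 at 1.5 hr against 29.8% of all coding genes, and in 6 at 24 hr against 16.8%. With a mean above 5 it was 25 of 46 (54.3%) at 1.5 hr against 30.9%, and after GC centring 5 (10.9%) against 11.3%. Mad2l1, a spindle checkpoint gene, had 24.8, 220, 34.6 and 141 units, and Cks2, a partner of the cyclin-dependent kinases, had 68.7, 698, 98.7 and 356 units. Their log2 ratios at 1.5 hr, 3.15 and 3.34, exceeded those of all 52 genes. The lowest of this list at 24 hr were Cdc25b and Cenpm, with −0.74 and −0.70.

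Genes that hold the cycle back were measured in the same libraries. Of 19 such genes, 7 had a mean above 100, and 3 had ratios of 2-fold or more at both 1.5 and 24 hr, against 29.8% and 16.8% of all coding genes. With a mean above 5 it was 7 of 19 (36.8%) at 1.5 hr against 30.9%. Cdkn2a, the locus of the inhibitors p16 and p19, had 731, 3556, 782 and 3507 units. Its neighbour Cdkn2b, the gene of p15, had 476, 1730, 421 and 1189 units. The transcripts of Cdkn2a share exons, so its products cannot be told apart. Btg2, an antiproliferative gene, had 181, 613, 296 and 385 units. Cdkn1c, the gene of p57, was lower throughout, with 573, 315, 129 and 190 units. Cdkn1a, the p53 target that encodes p21, had the highest level of this list, 3416, 5345, 1815 and 4906 units, and log2 ratios of 0.65, −0.91 and 0.52. E2f4, a repressor in resting cells, had ratios of 0.12, −0.62 and 0.25. Fzr1, which directs cyclin destruction in G1, had ratios of −0.05, −1.07 and −0.69, the first and last of which were 0.50 and 0.13 after GC centring. GC centring raised the ratios of Cdkn2a to 2.67 at 1.5 hr and 2.91 at 24 hr.

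Among 11 regulators of G1, 7 had a mean above 100, and 4 reached 2-fold at 1.5 hr against 29.8% of all coding genes, with 2 of 7 after GC centring against 10.8%. With a mean above 5 it was 4 of 11 (36.4%) against 30.9%. Cks1b and Myc were highest at 24 hr, with log2 ratios of 1.44 and 1.30. Cdk4, a partner of Ccnd1, had 1416, 3127, 945 and 2293 units. Ccnd3 was the lowest at 24 hr with −0.56 (0.09 after GC centring), followed by Cdc25a with 0.06.

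The coding genes outside these lists whose 3 ratios came closest to the median profile of the mitotic genes, by Euclidean distance, were Ube2f, 1110007C09Rik, Lrrc41, Steap1 and Glrx3, at distances of 0.03 to 0.07. Glrx3, for example, had 639, 1625, 455 and 1180 units. These genes were named for the likeness of their ratios alone.

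All 52 genes carried H3K4me3 in untreated cells. A deposited peak overlapped the start extended by 1 kb on both sides in 52 of 52 genes. The share was 79.1% of all coding genes with a mean level above 5 and 89.1% of those with a mean level above 100. For 51 genes the start itself lay in the peak, and for Cdca8 the annotated start lay 416 bases outside it while a RefSeq start lay within. The peaks at the 52 genes had a median length of 3489 bases, 1032 tags and a fold enrichment over the local background of 49.7, against 3437 bases, 1190 tags and 48.5 at the coding genes with a mean level above 5 and a peak. Among them the fold enrichment ran from 21.7 at Mcm6 to 134 at Bub1. The median was 44.2 for the S-phase and 55.8 for the mitotic genes. Bub1, with the lowest RNA level before treatment, had the highest enrichment, and Mcm5, Cdc20 and Rrm2 were next to Mcm6 with 24.9 to 25.9. As the mark was measured in untreated cells only, it does not speak to the effect of TNFα. A divergent start within 1 kb was found for 4 of the 52 genes, among them Mcm4 with Prkdc, Aurka with Cstf1 and Brca1 with Nbr1, which is 7.69% compared with 10.3% of all coding genes with a mean above 5.

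**Figure D5:**
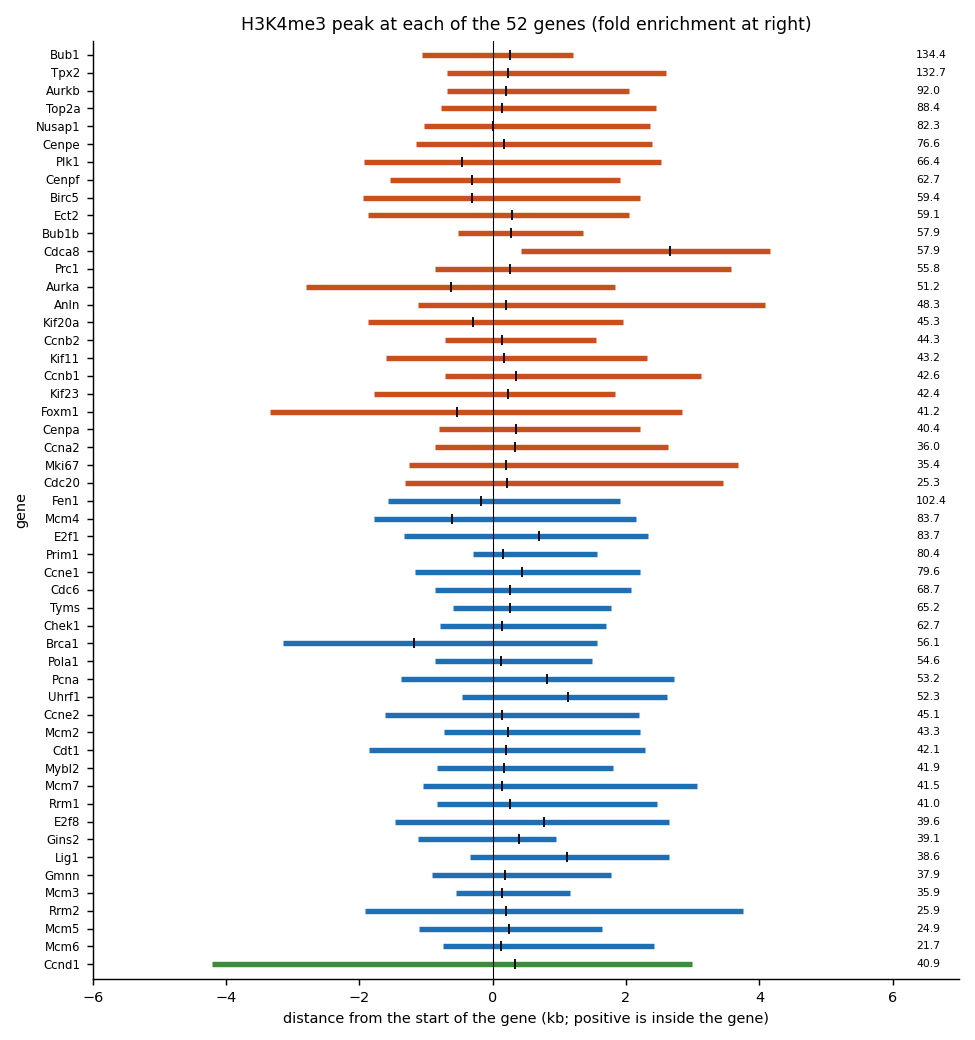
Extent of the H3K4me3 peak at each of the 52 genes (bars, 1 ChIP library) relative to the start of the gene (x axis, kb), with the summit as a black tick and the fold enrichment at the right. S-phase genes are blue, mitotic genes orange and Ccnd1 green. Bars span the start in all genes but Cdca8, and enrichment runs from 21.7 at Mcm6 to 134 at Bub1.

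The S-phase and mitotic genes differed in the letters of their promoters. RefSeq promoters, 250 bases before to 50 bases after a start, were given for 42 of the 52 genes and were searched on both strands for 4 forms of the E2F motif, the CCAAT box and the CHR (cell-cycle genes homology region). The E2F forms searched were TTCCCGC and the variant TTGGCGC and, in addition, TTCGCGC and the variant TTGCCGC. The CHR was searched as TTTGAA and as the variant TTCGAA. The 42 genes had 49 promoter entries, and a gene was counted once if any of its entries held the motif. An E2F motif was in 16 of 22 S-phase promoters (72.7%) and 3 of 20 mitotic promoters (15%), against 14.6% of the 14214 coding genes with a promoter. A CHR was in 4 of 22 (18.2%) and 16 of 20 (80%), against 19.4%. CCAAT was in 13 of 22 (59.1%) and 17 of 20 (85%), against 42.5%, and CCAAT together with a CHR in 3 (13.6%) and 15 (75%), against 9.03%. With only the 150 bases before the start searched, the S-phase promoters with an E2F motif were 10 of 22 (45.5%), against 8.65% of all coding genes. In that window the mitotic promoters with a CHR were 6 of 20 (30%), against 9.42% of all coding genes, and the median position of their CHR matches in the whole window was 5 bases before the start. A match is a description of the letters and no evidence that a factor binds. Some windows lie wholly inside the gene as annotated and do not show the letters before its annotated start. Among them are the windows with the E2F matches of Cdc6, Chek1, Mcm7 and Lig1, and the window of Cdca8 with its CCAAT and CHR matches. CCAAT and an E2F motif shared letters in 5 genes, and a pair of E2F matches shared letters in Mcm3, Mcm5, Mcm6 and Mcm7.

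The 6 promoters printed here show this difference and the genes the results turn on. They were placed in NCBIM37 (mm9) by exact match of the RefSeq sequence and are written from 5′ to 3′ on the strand of the gene, with each E2F, CCAAT or CHR match in capitals and the rest in lower case. Mcm6 and Pola1 had the most E2F matches in a single promoter entry of the S-phase genes, 5 and 4. Mcm7 had 1 and 3 in its separate entries. Mcm6 lies at chr1:130256233-130256532 on the minus strand and its peak had 589 tags. Pola1 lies at chrX:90877445-90877744 on the minus strand with a peak of 490 tags.

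Mcm6: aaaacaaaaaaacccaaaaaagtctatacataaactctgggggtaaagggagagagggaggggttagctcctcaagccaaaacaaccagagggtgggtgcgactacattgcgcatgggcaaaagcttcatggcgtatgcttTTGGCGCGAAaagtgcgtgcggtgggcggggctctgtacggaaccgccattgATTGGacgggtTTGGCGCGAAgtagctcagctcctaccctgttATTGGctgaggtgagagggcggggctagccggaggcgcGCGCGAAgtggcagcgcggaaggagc
Pola1: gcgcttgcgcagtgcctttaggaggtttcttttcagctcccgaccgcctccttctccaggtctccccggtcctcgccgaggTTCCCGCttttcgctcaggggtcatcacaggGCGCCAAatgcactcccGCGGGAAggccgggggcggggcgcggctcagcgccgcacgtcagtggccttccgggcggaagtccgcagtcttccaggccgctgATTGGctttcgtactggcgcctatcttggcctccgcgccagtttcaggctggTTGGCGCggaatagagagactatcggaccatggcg

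The E2F matches of Mcm6 begin 109, 106, 46 and 43 bases before and 24 bases after the start. Those at 109 and 106 and at 46 and 43 share letters, so the matches form 3 stretches, and 2 CCAAT matches, read as ATTGG, lie at 57 and 14 bases before the start. In Pola1 the E2F matches begin 169, 138 and 121 bases before and 15 bases after the start. Of the mitotic genes, Top2a had the most matches in a single promoter entry, 6 of CCAAT and 4 of CHR, and Ccnb2 had 3 and 2. Mki67 and Ect2, not printed here, also had 3 and 2, and in addition 1 E2F match. Top2a lies at chr11:98885454-98885753 and Ccnb2 at chr9:70269312-70269611, both on the minus strand.

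Top2a: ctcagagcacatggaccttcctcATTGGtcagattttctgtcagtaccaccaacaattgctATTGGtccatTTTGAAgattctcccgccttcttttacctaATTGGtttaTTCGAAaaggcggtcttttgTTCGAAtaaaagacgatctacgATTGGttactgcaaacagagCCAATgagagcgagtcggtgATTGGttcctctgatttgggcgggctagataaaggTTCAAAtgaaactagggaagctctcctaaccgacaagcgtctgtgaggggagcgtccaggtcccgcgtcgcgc
Ccnb2: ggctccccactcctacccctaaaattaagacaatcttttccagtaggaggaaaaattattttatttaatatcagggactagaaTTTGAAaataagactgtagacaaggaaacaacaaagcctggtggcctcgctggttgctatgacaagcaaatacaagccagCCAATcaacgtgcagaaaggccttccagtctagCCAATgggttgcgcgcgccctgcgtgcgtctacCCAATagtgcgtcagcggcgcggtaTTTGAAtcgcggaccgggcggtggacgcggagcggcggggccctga

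The 3 CCAAT boxes of Ccnb2 begin 87, 54 and 21 bases before the start and its 2 CHR matches begin 167 bases before and 4 bases after the start. Neither promoter held one of the E2F motifs. The H3K4me3 peaks of Top2a and Ccnb2 had fold enrichments of 88.4 and 44.3. Pcna, with the highest ratio as deposited, and E2f1, with the lowest ratio at 1.5 hr, are shown last. Pcna lies at chr2:132078867-132079166 and E2f1 at chr2:154395113-154395412, both on the minus strand, and their RefSeq starts lie 134 and 466 bases downstream of the annotated starts.

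Pcna: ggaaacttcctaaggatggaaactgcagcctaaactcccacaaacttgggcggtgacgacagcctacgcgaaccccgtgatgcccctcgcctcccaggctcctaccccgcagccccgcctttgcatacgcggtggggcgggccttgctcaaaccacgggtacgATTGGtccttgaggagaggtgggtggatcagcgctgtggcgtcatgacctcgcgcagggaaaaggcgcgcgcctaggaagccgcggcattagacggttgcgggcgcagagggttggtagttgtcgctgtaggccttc
E2f1: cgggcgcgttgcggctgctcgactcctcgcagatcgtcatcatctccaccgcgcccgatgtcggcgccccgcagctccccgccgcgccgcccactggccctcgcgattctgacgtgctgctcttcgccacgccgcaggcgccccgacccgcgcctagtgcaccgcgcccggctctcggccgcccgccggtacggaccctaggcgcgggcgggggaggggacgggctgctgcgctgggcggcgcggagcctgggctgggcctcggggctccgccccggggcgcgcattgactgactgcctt

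Pcna held a single CCAAT match. The E2f1 window held none of the 3 motifs, but all of it lies inside the gene as annotated (chr2:154385143-154395628). It therefore does not show the letters before the annotated start of E2f1, which were not searched. Mcm6, with 5 E2F matches, and Pcna, with 0, had log2 ratios of 1.73 and 2.10 at 1.5 hr. The 10 genes with no promoter entry were Aurkb, Ccna2, Ccnd1, Ccne2, Foxm1, Gins2, Gmnn, Kif20a, Mcm4 and Tpx2.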

How the data were processed

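Poly(A) RNA-seq (strand-specific, paired-end) was made from 4 MEF samples and H3K4me3 ChIP-seq from 1 ChIP and 1 input sample. The authors mapped the RNA reads to mm9 with TopHat and computed RPKM for RefSeq transcripts by a script of their own, and the deposited values are RPKM multiplied by a constant, in 2 columns (R1 and R2) per library. Columns were assigned to times by the library names in the study's supplementary list. The authors mapped ChIP reads by Bowtie, and peaks were called against input by MACS. The deposited list holds a tag count, a score made from the p-value, the fold over the local background and the percent FDR of each peak. Its 11157 peaks have a fold enrichment of at least 20.

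The coding rows of 20275 symbols were reduced to 1 row per symbol and R1 and R2 were averaged. Log2 ratios were taken to the untreated library without a pseudocount, and at least 2-fold was counted over all coding genes with a mean above 100 (6050 genes). A limit of 5 (12576 genes), which all 52 genes pass, was added after seeing the values. With 1 library per time no test was made, and counting intervals cover counting error only. R1 and R2 were not treated as replicates: of genes with 1 read in R1, 53.6% to 67.4% had 1 read in R2, against 10.1% to 19.3% in R1 of another library. GC content came from GENCODE transcripts, in 20 bins. Values are named for the 3 highest and lowest ratios, the MCM complex, factors, markers and, from other lists, the extremes at 24 hr. Other genes were added after their values were seen. The members and lists were chosen with earlier results of these data known. Alternatives were other scalings, columns, pseudocounts, filters and folds. The steps were tested on simulated data. Python 3.11.15, numpy 2.4.6 and pandas 2.3.3 were used.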

Additional observations from a re-analysis of the deposited data

Results flagged for a closer look

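Between time points the direction of both gene lists turned, and with 1 library per time the difference was not tested. The median log2 ratio of all 26 S-phase genes was 1.05 at 1.5 hr and −0.87 at 6 hr, and 0.73 at 24 hr against the same −0.87 at 6 hr. That of all 25 mitotic genes was 1.31 and 0.88 at 1.5 and 24 hr against −0.38 at 6 hr, a sign that turned above 0 for the more abundant mitotic genes under other scalings. The median of all coding genes turned in the same way, from 0.49 to −0.74 and 0.13, and the sum of all values in the 6 hr library was 0.563 of that in the untreated library. The part of the library in these differences was not tested.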

How the results depend on the processing

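No paired analysis was possible because each time has 1 sample. Results here are for the 26 genes with a mean level above 100. At 1.5 hr 16 genes were at least 2-fold higher and 0 lower, at 6 hr 0 and 8, and at 24 hr 8 and 0. At 1.5 hr the higher count was 9 under both median-of-ratios scalings, the trimmed mean and relative to the library median, 5 after GC centring, 3 with a pseudocount of 100, 8 at 3-fold, 0 with a filter above 500 and 35 with no filter or the added filter above 5. The lower count was 1 under the 4 scalings and at 1.5-fold, and 2 relative to the library median. At 6 hr the lower count was 0 under the 4 scalings, relative to the median, after GC centring, with a pseudocount of 100, above 500 and at 3-fold, 4 with a pseudocount of 10 and 16 at 1.5-fold. At 24 hr the higher count was 2 after GC centring, 0 with a pseudocount of 100, above 500 and at 3-fold, 15 with no filter or above 5, and 17 at 1.5-fold, with 2 lower at 1.5-fold.

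The S-phase and mitotic medians at 1.5 hr, 0.65 and 1.32, were 0.40 and 1.07 scaled to the sum, 0.22 and 0.89 by median of ratios over coding transcripts, 0.24 and 0.91 over all transcripts, 0.29 and 0.95 by trimmed mean, and 0.22 and 0.36 after GC centring. At 6 hr, in the same order, −0.95 and −0.50 became −0.12 and 0.33, −0.15 and 0.30, −0.14 and 0.31, −0.21 and 0.23, and −0.15 and 0.020. At 24 hr 0.58 and 0.83 became 0.29 and 0.36 after GC centring. With a pseudocount of 100 they were 0.48 and 0.85 at 1.5 hr, −0.45 and −0.23 at 6 hr and 0.33 and 0.47 at 24 hr, and with one of 10 the mitotic median was 1.27 at 1.5 hr and −0.45 at 6 hr and the S-phase median −0.86 at 6 hr. With no filter or above 5, the S-phase median was 1.05, −0.87 and 0.73, and the mitotic median −0.38 at 6 hr. Without Ccna2, Top2a, Foxm1 and Mki67 the mitotic median was 1.39 at 1.5 hr and 0.99 at 24 hr. The mitotic minus S-phase difference was 0.14, 0.17 and 0.073 after GC centring and 0.38, 0.22 and 0.14 with a pseudocount of 100 at the 3 times, and 0.25 at 1.5 hr and 0.15 at 24 hr with no filter or above 5. It was above 0 in each of these settings. Promoters with a CHR were 9 of 42 in the 150 bases before the start, against 20, and S-phase promoters with an E2F motif 10 of 22, against 16. The causes were not tested beyond the construction of each setting.

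Of 54 ratios of named genes, 0 changed sign under both pseudocounts, the R2 column and the mean of all coding rows, 2 with the R1 column, 9 after GC centring and 8 to 10 under each scaling. One library per time gives no estimate of biological error, and depth limits the rarest genes, such as Chek1 with about 13 reads at 6 hr.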
